A study of Schizosaccharomyces pombe with 4 samples.

Results

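The small subunit ribosomal protein genes of fission yeast (Schizosaccharomyces pombe) encode the proteins of the 40S subunit and are named rps followed by a number. The members taken here were the nuclear coding genes of the ASM294v3 annotation that carry such a symbol and whose product is named as a ribosomal protein. There are 55 of them, for 31 different proteins. The array coordinates of chromosome I did not match the reference beyond 3.7 Mb, so 7 members there (rps002, rps1102, rps1502, rps2502, rps2801, rps3001 and rps801) were not analysed here. The other 48 were all measured, among 4298 coding genes tested of 5113 annotated, and they still cover all 31 proteins.

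The 40S subunit binds the messenger RNA, scans it for the start codon and decodes it, and each of its proteins is needed in equal amount with the others and with those of the large (60S) subunit. Ribosomal protein genes are among the most strongly transcribed genes of a growing yeast cell and are regulated together. In fission yeast their promoters commonly hold a short element called HomolD, near the start of transcription and in place of a TATA box, and some hold a second element called HomolE. Cdk11 is a cyclin-dependent kinase that pairs with cyclin L, and the study's title links it to Mediator, a complex that passes signals from activators to RNA polymerase II.

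The study mapped Cdk11 by ChIP-chip, in which DNA that is crosslinked to a protein and precipitated with it is hybridised to an array against input DNA. Per the labels, the cells were wild-type carrying Cdk11-HA (the kinase with a haemagglutinin epitope tag), grown in YES, a rich medium, at 32 °C to mid-log phase and fixed in 3% formaldehyde for 10 min. Chromatin of about 500 bp was precipitated with the anti-HA antibody HA.11 clone 16B12, amplified by ligation-mediated PCR and hybridised on 4 Agilent 4x44k arrays that form 1 group. Replicates 1 and 3 share the first immunoprecipitation, and replicates 2 and 4 share the second, which gives n = 2 throughout, and no untagged or mock sample or dye swap was analysed here.

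Every value below is log2(Cy3/Cy5) of the spot signals, relative to the median probe of its array. A value of 0 is thus that median probe and not an absence of Cdk11. Per the labels Cy3 held the precipitated DNA and Cy5 the input, but the authors' deposited ratios run the other way, as Cy5 over Cy3. Which sign means more Cdk11 is therefore not settled here. A negative value is called higher in Cy5 below, and a positive one higher in Cy3. A gene was called when limma's two-sided test over both immunoprecipitations gave a Benjamini-Hochberg adjusted p under 0.05 across all genes tested.

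The promoters of the 6 genes farthest from 0, in the order of their values, show the HomolD element at the genes the results turn on. The rule for these 6 took only genes with a HomolD core, and no gene was passed over for lack of one. The promoter of rps101 follows, to set beside its duplicate copy rps102, and that of rps602, the gene closest to 0, which was chosen after its value was seen. Each line gives the 150 bases before the annotated gene start, 5′ to 3′, from the RefSeq genome and annotation of ASM294v3. Capitals mark the HomolD core CAGTCAC or the HomolE core ACCCTAC, on either strand (GTGACTG and GTAGGGT when reversed). The first 4 are rps1402 (chrII:1792213-1792362, plus strand), rps2 (chrIII:2096037-2096186, minus strand), rps102 (chrI:898963-899112, minus strand), and rps27 (chrII:517171-517320, plus strand). The others are rps13 (chrI:2746693-2746842, minus strand), rps3 (chrII:4239340-4239489, minus strand), rps101 (chrI:175785-175934, minus strand), and rps602 (chrI:3319100-3319249, plus strand).
rps1402: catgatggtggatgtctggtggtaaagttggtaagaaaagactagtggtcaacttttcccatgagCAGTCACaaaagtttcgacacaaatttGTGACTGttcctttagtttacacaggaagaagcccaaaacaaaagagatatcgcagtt
rps2: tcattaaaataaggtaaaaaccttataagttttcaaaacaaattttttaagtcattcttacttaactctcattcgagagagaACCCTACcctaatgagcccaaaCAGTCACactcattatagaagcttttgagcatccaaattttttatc
rps102: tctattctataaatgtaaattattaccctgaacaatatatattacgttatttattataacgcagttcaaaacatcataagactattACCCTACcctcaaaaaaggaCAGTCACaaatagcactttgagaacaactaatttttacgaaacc
rps27: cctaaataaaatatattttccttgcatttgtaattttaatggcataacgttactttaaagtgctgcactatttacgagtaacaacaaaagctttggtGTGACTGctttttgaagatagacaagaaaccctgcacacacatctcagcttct
rps13: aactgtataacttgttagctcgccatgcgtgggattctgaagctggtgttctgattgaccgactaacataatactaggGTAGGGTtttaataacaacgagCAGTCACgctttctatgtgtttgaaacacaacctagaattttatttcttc
rps3: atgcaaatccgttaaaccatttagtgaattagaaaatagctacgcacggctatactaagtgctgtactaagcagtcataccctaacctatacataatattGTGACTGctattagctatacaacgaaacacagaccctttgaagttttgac
rps101: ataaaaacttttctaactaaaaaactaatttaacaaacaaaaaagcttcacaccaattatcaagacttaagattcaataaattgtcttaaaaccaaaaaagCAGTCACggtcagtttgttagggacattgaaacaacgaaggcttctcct
rps602: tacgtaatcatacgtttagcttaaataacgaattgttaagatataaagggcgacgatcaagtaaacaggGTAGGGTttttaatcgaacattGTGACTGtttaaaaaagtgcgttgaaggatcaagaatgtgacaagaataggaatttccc

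All 8 hold a HomolD core, which the rule required of all but rps101 and rps602. Of these, rps602 lies at the opposite end of the range. The rps1402 promoter has it on both strands, and rps2, rps102, rps13 and rps602 have a HomolE core farther upstream. The copies rps102 and rps101 differ in that only rps102 has a HomolE core in the stretch shown.

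In the window from 250 bases before to 50 bases after the gene start, 43 of the 48 genes (89.6%) held CAGTCAC on either strand. The share was 91.6% of 83 large subunit genes, 1.32% of 76 mitochondrial ribosomal protein genes and 4.71% of all 5113 coding genes. In 42 of the 43, the core nearest the start began 43 to 74 bases before it, with a median of 52 bases over the 43. ACCCTAC was in 20 of the 48 (41.7%), in 26.5% of the large subunit genes and in 2.66% of all coding genes, and 16 genes held both cores. TATAAA was in 14 of the 48 (29.2%) against 48.1% of all coding genes. Each motif was counted on both strands and independently of the others, so overlapping matches would count for each.

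Over the coding span with 500 bp on both sides, all 48 genes lay on the Cy5 side of 0 in both immunoprecipitations, a pattern that 32.4% of all coding genes shared, although 4 of the 48 lay above 0 after loess and 3 without replicate 3. On all 4 single arrays 39 of the 48 were below 0, against 17.1% of all coding genes. Limma called 33 of the 48 higher in Cy5, where the share over all coding genes was 6.72%. None of the 48 was called higher in Cy3 (all coding genes 1.44%). In that direction 0 reached even an unadjusted p under 0.05, against 254 of the 4298 coding genes. Of the 31 proteins, 27 had at least 1 called gene.

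The median of the 48 was -0.70, with -0.79 in the first and -0.58 in the second immunoprecipitation, while the median of all coding genes was -0.01. The 33 called genes ran from -1.505 to -0.51 and the other 15 from -0.49 to -0.10. At least 2-fold higher in Cy5 in both immunoprecipitations were 4 of the 48 and 49 of all 4298 genes tested. Among the 100 lowest of the 4298 genes were 12 of the 48. Across the 48 genes the immunoprecipitations correlated at r = 0.59, and at 0.57 over all genes, as a description over genes that share the same arrays. The median SD between immunoprecipitations was 0.23 for these genes and 0.16 for all genes.

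**Figure D1:**
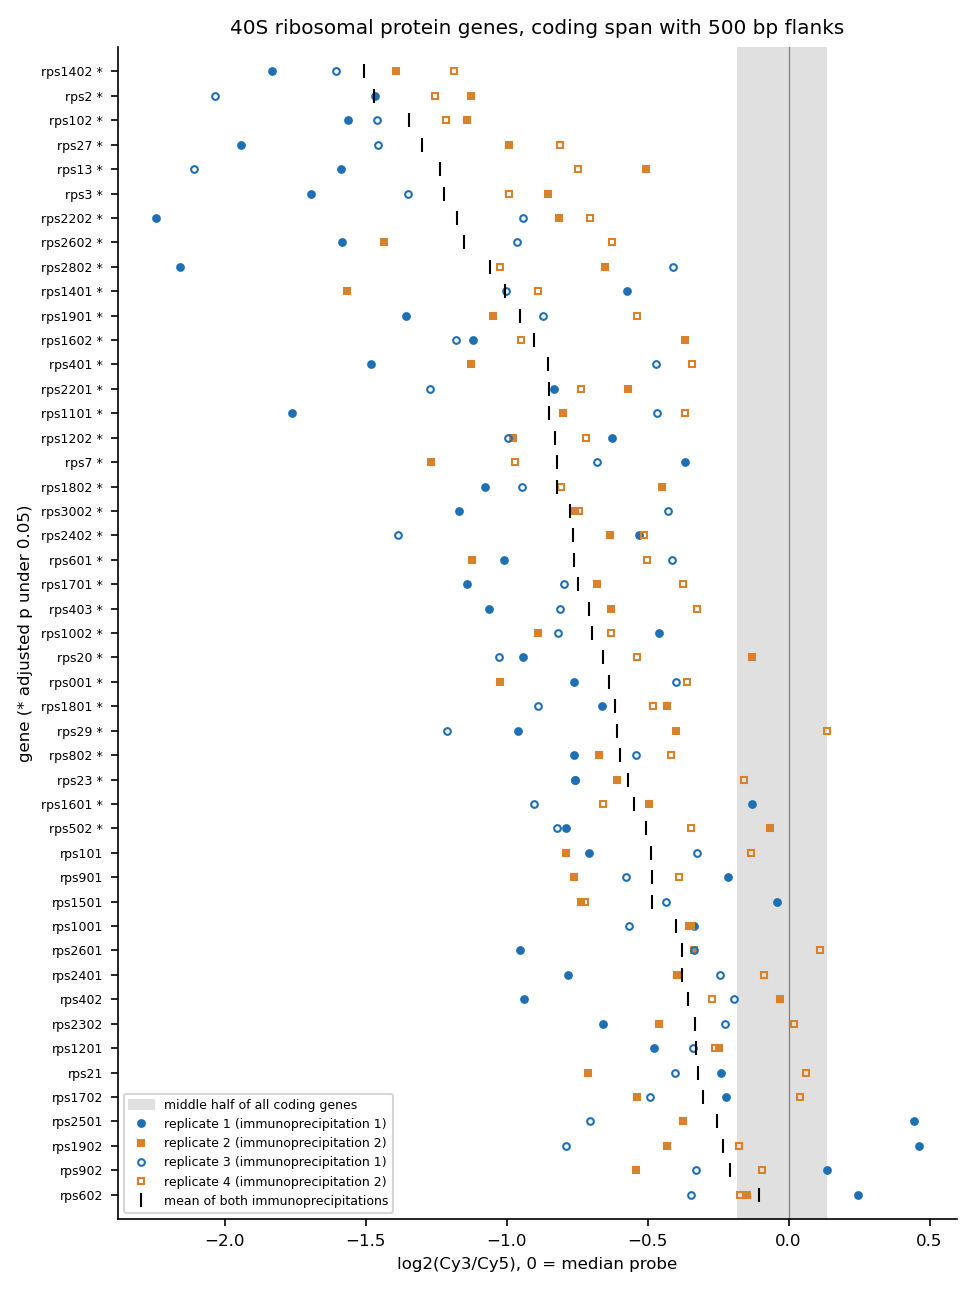
The value of 47 of the 48 genes on each array (symbols) and the mean of both immunoprecipitations (bars), as log2(Cy3/Cy5) over the coding span with 500 bp flanks; stars mark called genes and the grey band is the interquartile range of all coding genes (-0.18 to 0.13). All 47 means lie below 0, from -1.505 for rps1402 to -0.10 for rps602 (after loess 4 genes lay above 0), and most single arrays lie below the band.

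The counts depended on single arrays. Without replicate 3 the called genes were 15 of 48 (all coding genes 2.38%), without replicate 2 they were 19 (3.44%), and with only probes well above background they were 13 (2.66%), while the median stayed between -0.77 and -0.63 in these 3 settings. The log ratio fell as spots became brighter (r from -0.64 to -0.47 over the 4 arrays), and the probes of these genes were brighter than the rest (median log2 12.54 against 12.18). A loess fit that removes this trend left 29 genes called higher in Cy5 (all coding genes 8.66%), 26 of them among the 33, with a median of -0.46 against -0.04 for all genes.

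The first 4 in order of value were genes of 4 different 40S proteins. The gene rps1402 encodes uS11, a protein of the subunit's platform that lies near the messenger RNA exit. It stood at -1.83, -1.39, -1.61 and -1.19 on replicates 1 to 4, a mean of -1.505 ± 0.30 (SD, n = 2) or 2.84-fold higher in Cy5 (limma adjusted p = 2.29e-15). Both arrays of the first immunoprecipitation were lower than both of the second. None of its 3 probes lies inside the short coding span. The gene rps2 encodes uS5, part of the channel through which messenger RNA enters. Its values were -1.47, -1.13, -2.03 and -1.25, a mean of -1.47 ± 0.40 (2.77-fold, limma adjusted p = 1.03e-14), again lower on both arrays of the first immunoprecipitation.

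The gene rps102 encodes eS1, which lies beside uS11 at the exit side. It was at -1.56, -1.14, -1.46 and -1.22, with a mean of -1.34 ± 0.23 (2.54-fold, limma adjusted p = 2.57e-12). Its 4 arrays were the closest to each other among these 4 genes, and the first immunoprecipitation was again the lower. The gene rps27 encodes eS27, a zinc-binding protein. Its values were -1.94, -0.99, -1.46 and -0.81, with a mean of -1.30 ± 0.56 (2.46-fold, limma adjusted p = 1.68e-11). The immunoprecipitations did not overlap at this gene either.

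The next 4 in order were called as well. The gene rps13 encodes uS15, a protein of the subunit's body. It was at -1.59, -0.51, -2.11 and -0.75, so the first immunoprecipitation was far below the second, and its mean of -1.24 ± 0.86 (limma adjusted p = 1.77e-10) had the largest SD among the 48. The immunoprecipitations average different probes here, which adds to that gap. The probe at -358.5 bp, which lies in another coding gene, had no value in the first and was at 0.80 in the second. The call of rps13 was lost without replicate 4 and with only probes well above background (limma adjusted p up to 0.0673 over the alternatives). The gene rps3 encodes uS3, which lines the entry channel. Its values were -1.69, -0.85, -1.35 and -0.99, with a mean of -1.22 ± 0.42 (limma adjusted p = 3.27e-10). Both arrays of the first immunoprecipitation were lower here too. A small RNA gene, snR48, lies within the coding span of rps3, and its part in the value was not tested.

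The gene rps2202 encodes uS8, a body protein that binds 18S ribosomal RNA. It was at -2.25, -0.82, -0.94 and -0.70, with a mean of -1.18 ± 0.59 (limma adjusted p = 1.71e-09), and replicate 1 stood apart from the other arrays. Poor spots were left out array by array, so these arrays need not average the same probes. The probe of rps2202 at -479.5 bp was at 1.39 and 0.56 in the first and second immunoprecipitation. How far such spots set replicate 1 apart was not tested. The gene rps2602 encodes eS26, which contacts messenger RNA at the exit side. Its values were -1.58, -1.44, -0.96 and -0.63, with a mean of -1.15 ± 0.17 (2.22-fold, limma adjusted p = 3.89e-09). Here the immunoprecipitations overlapped, since 1 array of each was low and the other less so. In this fit limma's estimate of the prior degrees of freedom was infinite, which gives all genes 1 shared variance, so a large SD such as that of rps13 does not raise its p. The very small p-values above rest on that shared variance. Where the prior was finite they were larger. At rps1402 the limma adjusted p was 0.000202 with centring on the mode and 0.0183 with only probes well above background.

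The 4 genes closest to 0 were not called, and in each of them replicate 1 alone lay above 0. The gene rps602 encodes eS6, the substrate of the S6 kinases. It was at 0.25, -0.15, -0.35 and -0.17, a mean of -0.10 ± 0.08 (limma adjusted p = 0.86). The immunoprecipitations average different probes at rps602. Its farthest upstream probe had no value in the first and was the highest of its probes in the second, which raises the second. How far the small SD and the place of rps602 as closest to 0 rest on that probe was not tested. The gene rps902 encodes uS4, an entry-channel protein that contributes to the accuracy of decoding, and its values were 0.14, -0.54, -0.33 and -0.09, a mean of -0.21 ± 0.16 (limma adjusted p = 0.611).

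The gene rps1902 encodes eS19, a protein of the subunit's head needed for maturation of 18S ribosomal RNA. It was at 0.46, -0.43, -0.79 and -0.18, a mean of -0.23 ± 0.10 (limma adjusted p = 0.538). The gene rps2501 encodes eS25, also of the head, with values of 0.45, -0.38, -0.71 and -0.38 and a mean of -0.25 ± 0.17 (limma adjusted p = 0.494). In all 4 genes the 2 arrays of the first immunoprecipitation were farther from each other than those of the second, so their small SDs hide a spread between duplicate arrays. Over the 48 genes the median difference was 0.39 between replicates 1 and 3, 0.30 between replicates 2 and 4, and 0.33 between immunoprecipitations.

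Next to the threshold, rps1601 (-0.55) and rps502 (-0.51, limma adjusted p = 0.0476) were the last genes called, and rps101 (-0.49, limma adjusted p = 0.0601) and rps901 (-0.49, limma adjusted p = 0.0621) the first not called. The members measured without a second copy and not given above were rps2802 (eS28) at -1.06, rps1101 (uS17) at -0.85, rps7 (eS7) at -0.82, rps3002 (eS30) at -0.775, rps20 (uS10) at -0.66, rps001 (uS2) at -0.64, rps29 (uS14) at -0.61 and rps802 (eS8) at -0.60, all called, and rps1501 (uS19) at -0.48 and rps21 at -0.32, which were not. Each of these 8 calls was lost under at least 2 alternatives, and that of rps29 under 11 of 14.

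Introns, chromosome and promoter motifs divide the 48 genes in other ways. The 21 genes without an intron had a median of -0.71 with 14 called, and the 27 with introns a median of -0.70 with 19 called. By chromosome, 15 of 21 genes were called on I (median -0.76), 14 of 20 on II (-0.67) and 4 of 7 on III (-0.66). Genes with a HomolD core had a median of -0.71 with 30 of 43 called, and the 5 without one -0.51 with 3 called. With a HomolE core the median was -0.72 and 14 of 20 were called, and without one -0.67 and 19 of 28. None of these splits was tested.

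Where along the gene the Cy5 side was reached is shown by fitting the flanks and the coding span apart. Over the open reading frame (ORF) alone, 31 of the 46 genes with a probe there were called higher in Cy5 (all coding genes 5.07%) and none higher in Cy3 (all coding genes 1.0%). In Cy3, 0 had an unadjusted limma p under 0.05, against 223 of 4202 coding genes. The median was -0.97, against -0.03 for all genes. Lowest were rps2202 at -2.25 ± 0.53 (SD, n = 2), rps13 at -2.10 ± 0.37, rps102 at -1.88 ± 0.30 and rps2 at -1.84 ± 0.36. Only rps2 among these had more than 1 ORF probe, with 4, and 21 of the 48 genes had 1.

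Over the 500 bp upstream of the start codon none of the 48 genes was called higher in Cy5 (all coding genes 0.0%). At an unadjusted p under 0.05, limma had 7 of the 48 higher in Cy5 and 1 higher in Cy3. Over all coding genes 305 of 4141 were higher in Cy3 at that p, and the matching Cy5 count is not given here. The upstream median was -0.07, against 0.12 for all genes, and 21 of the 48 lay above 0, led by rps602 at 0.81 ± 0.18. That mean and SD include the upstream probe of rps602 that only the second immunoprecipitation has. The lowest upstream value was that of rps27 at -1.64 ± 0.81, from a probe that also lies 3′ of the tandem gene rps29. Loess called 3 of the 48 higher in Cy5 there and 1 higher in Cy3, where the shares over all coding genes were 6.62% and 1.96%.

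Over the 500 bp downstream of the stop codon 11 of the 48 were called higher in Cy5 (all coding genes 2.72%). Among them were rps102 (-1.99 ± 0.40), rps1402 (-1.86 ± 0.43), rps2602 (-1.85 ± 0.29), rps2202 (-1.68 ± 0.25), rps29 (-1.64 ± 0.81), rps1901 (-1.61 ± 0.24), rps401 (-1.47 ± 0.11), rps2 (-1.44 ± 0.27), rps001 (-1.33 ± 0.47) and rps1401 (-1.30 ± 0.31). The median was -0.99 against -0.08 for all genes, and no gene lay above 0. The count varied widely with the processing, from 0 after normexp background correction (all coding genes 0.167%) to 29 with all arrays and a random block (all coding genes 7.08%).

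Within a gene, the ORF was lower than its upstream side in 42 of 46 genes, as it was in 62.8% of all coding genes, and in 39 of them in both immunoprecipitations, as in 41.4% of all. The median difference of ORF minus upstream was -0.91, against -0.17 for all genes, and after loess it was -0.27 against 0.11 for all genes. Only rps2202 passed the test of this difference, at -1.72 ± 0.69 (limma adjusted p = 0.0366), so 1 of 46 was called where the share over all coding genes was 0.739%. The next were rps1202 at -1.62 ± 0.76 (limma adjusted p = 0.0538) and rps1901 at -1.55 ± 0.53 (limma adjusted p = 0.0591). Downstream values were below the upstream ones in 41 of 46 genes (all coding genes 63.0%) and below the ORF in 27 of 46 (all coding genes 51.7%).

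**Figure D2:**
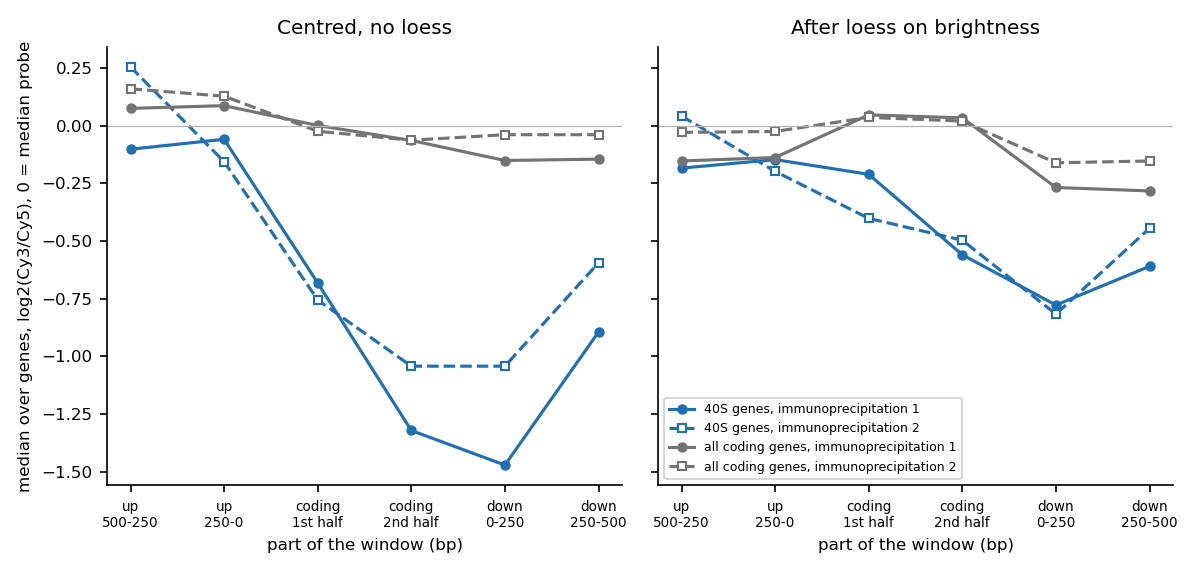
Median over genes of log2(Cy3/Cy5) in 6 parts of the window, from 500 bp upstream through the start-side and stop-side parts of the coding span to 500 bp downstream, for the 40S genes (blue) and all coding genes (grey) in each immunoprecipitation, without loess (left) and with it (right). From the upstream end to the first 250 bp downstream, the 40S medians go from -0.10 to -1.47 in the first immunoprecipitation and from 0.26 to -1.04 in the second without loess, and from -0.18 to -0.78 and from 0.04 to -0.82 with it. Each part holds 32 to 44 of the 40S genes, not the same ones throughout.

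Along the window the medians of the 40S genes, with each gene averaged over both immunoprecipitations, were 0.16 and -0.17 in the upstream flank, -0.87 and -1.12 in the start-side and stop-side parts of the coding span, and -1.29 and -0.64 in the downstream flank. These parts had a probe in 34, 44, 36, 32, 40 and 43 genes in turn, so their medians are not over the same genes. The lowest point lay just past the stop codon, at -1.47 in the first immunoprecipitation, whereas the second was level there with the stop-side coding part, at -1.04 for both. All coding genes went from 0.11 to -0.09 over the same parts and were also lowest in the first 250 bp downstream, at -0.11. The large subunit genes were lowest in the stop-side coding part, at -1.17. Spot brightness of the 40S genes moved with the profile, from a median log2 of 11.93 at the upstream end to 12.97 in the stop-side coding part and 12.47 at the downstream end. With loess the 40S medians were -0.09, -0.16, -0.36, -0.53, -0.85 and -0.52, so the lowest part was again the first 250 bp downstream. This part was then the lowest for all coding genes too, at -0.22, and for the large subunit genes, at -0.64.

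**Figure D3:**
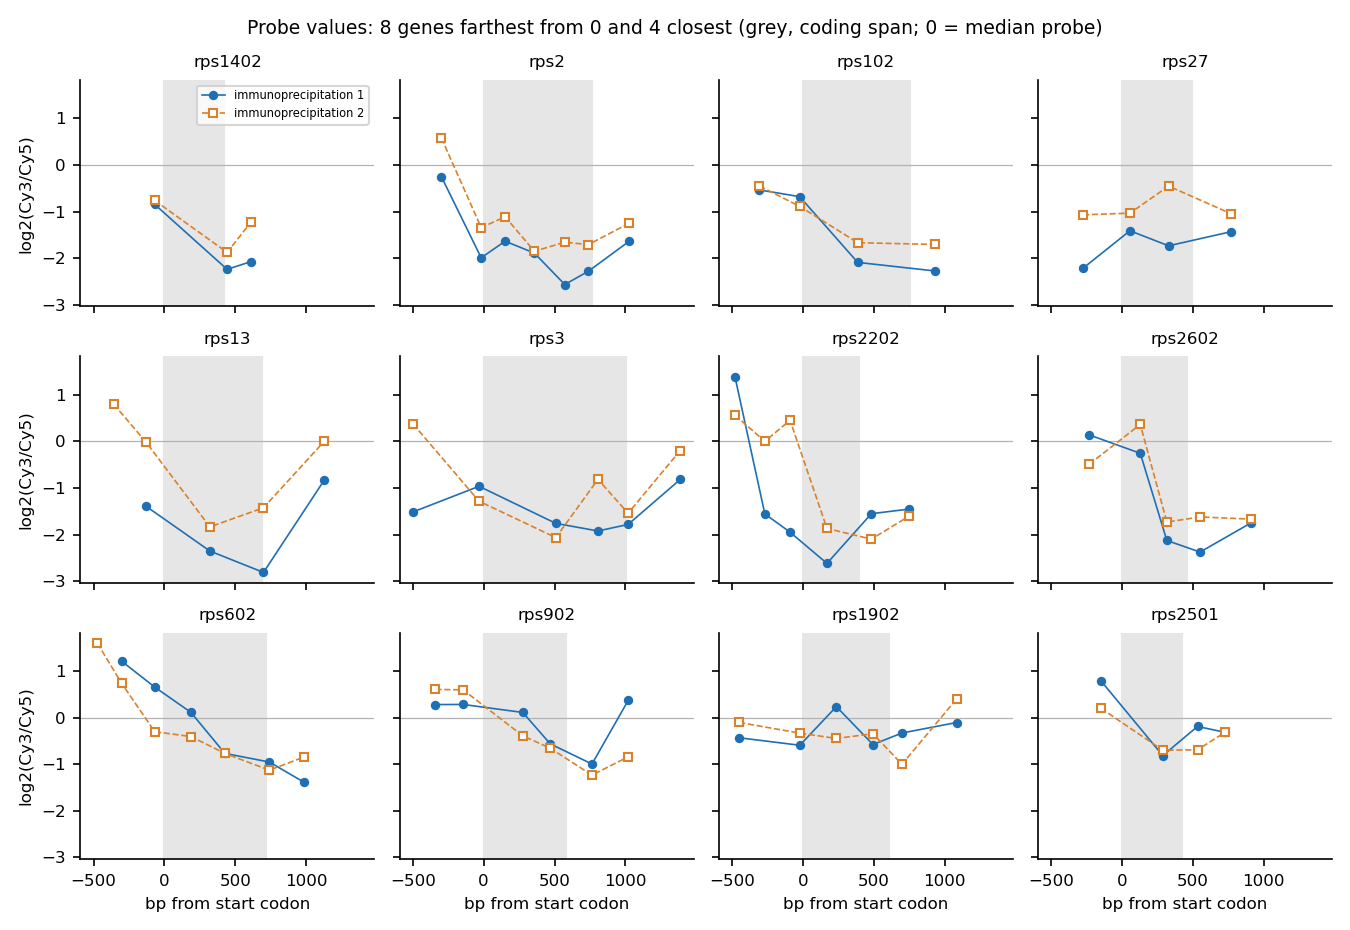
Each probe of the 8 genes farthest from 0 and the 4 closest, by the distance of its midpoint from the start codon in bp, as log2(Cy3/Cy5) in the first (circles) and second (squares) immunoprecipitation; grey marks the coding span. At rps2602 both immunoprecipitations drop within the coding span, and at rps602 they decline from above 0 upstream to about -1 downstream.

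Single genes show the profile probe by probe. At rps2602 the ORF probe 128.5 bp after the start codon was at -0.26 and 0.36 in the first and second immunoprecipitation, and the next one at 316 bp was at -2.13 and -1.73. The drop thus fell between neighbouring probes inside the coding span, and the values stayed below -1.6 to the last probe at 912.5 bp. At rps602, the gene closest to 0 over the whole window, the probe at -301.5 bp was at 1.21 and 0.73, and that at 740.5 bp was at -0.95 and -1.13. Its value near 0 thus averages an upstream side above 0 and a downstream side below it.

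At rps2 the probe at -298.5 bp was at -0.25 and 0.58, whereas the 5 probes from -17.5 to 739.5 bp were between -2.57 and -1.11 in both. That upstream probe lies in the 569 bp between rps2 and the divergent gene rps20 and counts for both. At rps27 no such step was seen, as the probe at -275 bp was at -2.21 and -1.07, and that at 769.5 bp at -1.43 and -1.05. It is the probe shared with rps29, whose coding span ends 608 bp before that of rps27 begins. These were the only members that share a probe.

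Most 40S proteins of fission yeast are encoded by more than 1 gene, and 16 proteins had at least 2 copies measured, which makes 18 pairs. Coding identity within a pair ran from 74.3 to 94.0% with a median of 88.1%, and 3 pairs share an identical coding stretch of at least 60 bases, the length of a probe, among them rps1402 with rps1401 and rps401 with rps403. How far the copies cross-hybridise was not tested. Both copies were called in 6 pairs, 1 copy in 11 and neither in 1. Pairs are named below with the lower copy first, so the sign of a difference is set by that order, and the differences were not tested.

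In 3 of the 18 pairs the 4 arrays of one copy did not overlap those of the other. How often other pairs of genes separate in this way was not counted, and the duplicate arrays are not independent. For eS1, rps102 was at -1.34 ± 0.23 (SD, n = 2) and rps101 at -0.49 ± 0.04, a difference of -0.86 ± 0.20. For eS6, rps601 was at -0.76 ± 0.07 and rps602 at -0.10 ± 0.08, a difference of -0.66 in the mean. For eS12, a protein of the head, rps1202 was at -0.83 ± 0.03 and rps1201 at -0.33 ± 0.11, a difference of -0.50 ± 0.14. In each of these pairs only the lower copy was called. The rps601 and rps602 difference was uneven between duplicate arrays, at -1.255, -0.98, -0.06 and -0.33 on replicates 1 to 4, and was -0.36 without replicate 1. The immunoprecipitations also average different probes at rps602, and the part of this in the difference was not tested.

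Other wide pairs overlapped on single arrays. For eS26, rps2602 was at -1.15 ± 0.17 and rps2601 at -0.38 ± 0.38, and for eS19, rps1901 was at -0.95 ± 0.23 and rps1902 at -0.23 ± 0.10. For uS11, rps1402 was at -1.505 ± 0.30 and rps1401 at -1.01 ± 0.31, both called. The 3 genes of eS4 were rps401 at -0.85 ± 0.17, rps403 at -0.71 ± 0.33 and rps402 at -0.36 ± 0.29. For eS17, rps1701 was at -0.75 ± 0.31 and rps1702 at -0.30 ± 0.08, and for eS24, rps2402 was at -0.77 ± 0.27 and rps2401 at -0.38 ± 0.19. Of these genes rps2601, rps1902, rps402, rps1702 and rps2401 were not called.

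Other pairs lay closer together. For uS9 the values were -0.90 ± 0.35 (rps1602) and -0.55 ± 0.04 (rps1601), for uS8 -1.18 ± 0.59 (rps2202) and -0.85 ± 0.28 (rps2201), and for uS13 -0.82 ± 0.27 (rps1802) and -0.62 ± 0.23 (rps1801). Both copies were called in these 3 pairs. For eS10 the values were -0.70 ± 0.09 (rps1002) and -0.40 ± 0.07 (rps1001), for uS12, the decoding-site protein, -0.57 ± 0.26 (rps23) and -0.33 ± 0.16 (rps2302), and for uS4 -0.49 ± 0.13 (rps901) and -0.21 ± 0.16 (rps902). Over the 18 pairs the difference ran from -0.86 to -0.15 with a median of -0.38. Without replicate 1 the order turned for rps2202 and rps2201 (0.11) and for rps401 and rps403 (0.04). Of the called genes named in these pairs, rps102, rps1402, rps1901, rps2202 and rps2602 kept the call under all 14 alternatives, and each of the others lost it under at least 1.

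**Figure D4:**
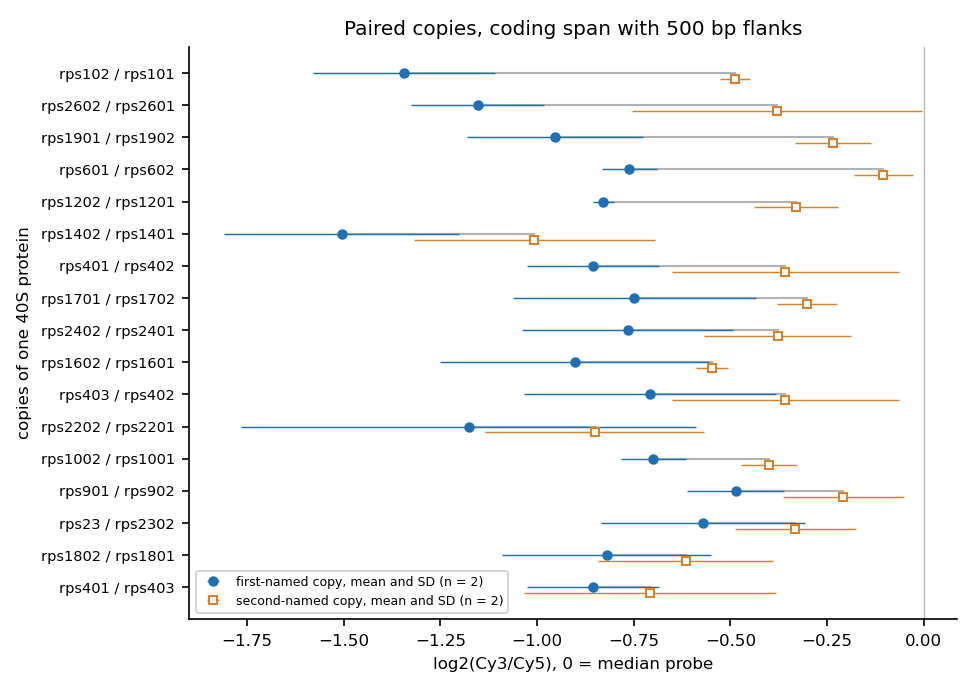
Mean and SD over both immunoprecipitations (n = 2) of log2(Cy3/Cy5) for 17 of the 18 pairs of copies, the lower copy first (circles) and the other second (squares), ordered by their difference. The pair rps102 and rps101 is widest apart at -1.34 and -0.49, and the pair rps401 and rps403 closest at -0.85 and -0.71.

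The copies rps102 and rps101 differed most over the ORF (-1.88 and -0.82) and downstream (-1.99 and -0.35). The upstream sides were at -0.74 and -0.16. Of these copies only rps102 has a HomolE core, whereas of rps601 and rps602 only rps602, the copy closer to 0, has it. The part of this core was not tested. For rps601 and rps602 the ORF values were -0.97 and -0.45 and the upstream values -0.30 and 0.81, while the downstream values of -0.97 and -0.99 were level.

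The other lists were the genes of the large and the mitochondrial ribosome and those that build or regulate the 40S subunit. Of 72 large subunit genes tested, 51 were called higher in Cy5 (all coding genes 6.72%) and none in Cy3 (1.44%), with a median of -0.66 (-0.44 after loess). The lowest were rpl4302 (eL43) at -1.32 ± 0.05 and rpl2302 at -1.21 ± 0.07. Mitochondrial ribosomal proteins are made in the cytosol and serve a separate ribosome. Of 71 genes for them, none was called higher in Cy5 (all coding genes 6.72%) and 3 were called higher in Cy3 (1.44%), with a median of 0.03. After loess 9 were called higher in Cy5 and 2 in Cy3 (all coding genes 8.66 and 2.23%) with a median of -0.07. Among the 3 called higher in Cy3 without loess were mrpl39 at 0.76 ± 0.18 (limma adjusted p = 0.00043) and mrpl10 at 0.55 ± 0.16 (limma adjusted p = 0.0258). Limma had 4 mitochondrial ribosomal protein genes higher in Cy5 and 0 large subunit genes higher in Cy3 at an unadjusted p under 0.05. Over all coding genes 254 of 4298 were higher in Cy3 at that p. The differences between these lists were not tested.

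Genes for factors that build or modify the 40S subunit were not called in either direction (all coding genes 6.72% in Cy5 and 1.44% in Cy3). After loess 1 was called higher in Cy5 (all coding genes 8.66%). At such shares lists this short would hold few calls. Of 19 symbols for such factors 16 were matched and 14 measured, with a median of -0.11. Limma had 1 higher in Cy5 and 0 in Cy3 at an unadjusted p under 0.05, where 254 of 4298 coding genes were higher in Cy3. Farthest from 0 were ltv1, known in budding yeast as a 40S assembly factor, at -0.44 ± 0.04 (limma adjusted p = 0.1) and nob1, known in budding yeast as the nuclease that makes the 3′ end of 18S ribosomal RNA, at -0.29 ± 0.23 (limma adjusted p = 0.395). Genes for regulators of ribosomal protein genes and for S6 kinases gave 12 measured of 15 matched, none called, with a median of -0.01, and at an unadjusted p under 0.05 limma had 1 higher in Cy5 and 0 in Cy3. Farthest from 0 among them were rrn7, annotated as an RNA polymerase I initiation factor and known in fission yeast as a HomolD-binding protein, at -0.37 ± 0.12 (limma adjusted p = 0.208) and the TOR kinase gene tor1 at 0.13 ± 0.03 (limma adjusted p = 0.822).

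**Figure D5:**
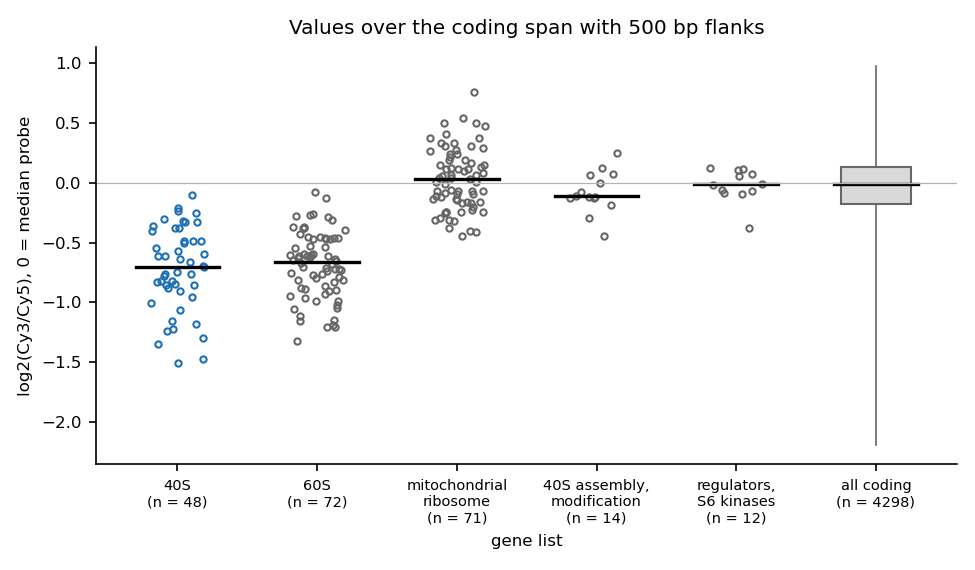
Value of each measured gene over its coding span with 500 bp flanks, as log2(Cy3/Cy5), for the 40S genes (blue), 4 other lists and all coding genes; bars are medians, and the box is the interquartile range with whiskers to the lowest and highest gene. The 40S and 60S genes have medians of -0.70 and -0.66, and the mitochondrial ribosomal protein genes one of 0.03 (-0.07 after loess).

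Several features of the array touch these values. The windows of the 48 genes hold 260 probes, 3 to 8 per gene with a median of 6, and 85.4% of them were well above background on all 4 arrays against 68.7% of all genomic probes. Poor spots took 24 of these probes from replicate 1, 9 from replicate 2, 4 from replicate 3 and 1 from replicate 4. The coding spans are short, with a median of 543 bp against 1220 bp for all genes, so the flanks weigh more in the window. In 15 genes a probe of the window lies in another coding gene, and without such probes 32 of the 48 were called (all coding genes 6.58%).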

How the data were processed

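Data were 4 two-colour Agilent arrays of Cdk11-HA chromatin against input DNA, from 2 immunoprecipitations hybridised in duplicate. The deposited scanner files give spot intensity per channel (mean foreground, median background) and, per the file headers, the percent of pixels above background or saturated and, as a fraction, the squared pixel correlation of the channels. The authors also deposited a table of log2 ratios, with no stated scale, centring or direction. With its sign turned it matched the loess-normalised scanner ratios at r = 0.996 to 0.999, and its column medians for replicates 1 to 4 were 0.008, -0.004, -0.014 and -0.013. Its steps are not given in the sources used here.

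Here log2 of the Cy3 over the Cy5 mean foreground was centred on the median probe of each array, without background subtraction. Control spots were left out, as were spots marked as poor unless saturated with a squared pixel correlation above 0.3. This removed 16.3, 5.28, 8.05 and 1.00% of the 42707 genomic probes on replicates 1 to 4. Well above background means at least 50% of a probe's pixels, in both channels and on all arrays.

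Probes were averaged per gene by their midpoint (coding span, 500 bp flanks, or both), the duplicate arrays averaged, and the mean of both immunoprecipitations tested against 0 with limma 3.58.1 in R 4.3.3 (lmFit and eBayes) over all coding genes, with Benjamini-Hochberg adjustment. Only the fit over the coding span with flanks was tested on simulated data with known changes. That simulation gave every gene the same variance, so it cannot check the p-values where genes differ in variance. The files name no genome build. In windows of 100000 bp, probe brightness tracked reference GC content unshifted in 107 of 107 windows used and in 0 of 19 on chromosome I beyond 3.7 Mb. The design named a promoter table and protein sequences. Promoters were instead read from the reference genome at its own gene starts with Biopython 1.88, and no protein sequence is printed.

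Members and gene lists were chosen with earlier results of these data known. Named with every array were the 8 genes farthest from 0 and the 4 closest, all with at least 3 probes. Copies of one protein, genes called for the difference of ORF and upstream, and at most 2 genes per other list were named by mean. Others named were chosen after their values were seen, and 1 gene is counted but not reported here by name. Alternatives included normexp with an offset of 50 and, for the duplicate arrays, a random block in place of averaging. The number of arrays limits the precision.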

Additional observations from a re-analysis of the deposited data

Results flagged for a closer look

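In 3 of the 48 genes screened, 1 of the 4 arrays stood far from the others, by a gap to its nearest neighbour of more than 0.829 of the range (Dixon's 95% critical value for 4 samples). Chance alone flags about 1 in 20 groups, and the duplicate arrays are not independent. Because poor spots were left out array by array, the arrays of a gene need not average the same probes. The gene rps2202 was at -2.25 on replicate 1 and between -0.94 and -0.70 on the others. The gene rps2402, for the eS24 protein, was at -1.39 on replicate 3 and between -0.63 and -0.51 on the others. The gene rps1001, for eS10, was at -0.57 on replicate 3 and between -0.35 and -0.34 on the others.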

How the results depend on the processing

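Of the 48 genes, 8 (rps102, rps1402, rps1901, rps2, rps2202, rps2602, rps27 and rps3) were called over the coding span with flanks under all 14 alternatives and 5 under none. The matching counts over all coding genes are not given here. In place of the 33 called higher in Cy5, the count was 13 with only probes well above background (all coding genes 2.66%). It was 15 to 22 with each replicate left out in turn (all coding genes 2.38 to 4.21%). None of the 48 was called higher in Cy3 under any of the 14. For all coding genes, Cy3 and Cy5 calls were 62 and 289, and they were 96 and 372 after loess, 20 and 163 after normexp, 8 and 114 with only probes well above background, and 4 and 310 with centring on the mode. The last moved the median of all genes from -0.01 to -0.16, and the 40S median less that of all genes was -0.69 before and after. Over the ORF the 31 calls became 7 after loess (all coding genes 1.62%), 0 in the deposited table (all coding genes 0.0%) and 6 to 25 with a replicate left out. Limma had 27 of the 46 genes with an ORF probe higher in Cy5 at an unadjusted p under 0.05 in the deposited table. Counts of all coding genes higher in Cy5 at an unadjusted p are not given here. Upstream the 0 calls in Cy5 became 3 after loess (all coding genes 6.62%), 1 with only probes well above background (1.16%), 2 with the random block (1.3%) and 0 to 1 with a replicate left out, and the 0 in Cy3 became 1 after loess (1.96%). Downstream the 11 calls became 26 after loess (all coding genes 14.4%), 0 after normexp (0.167%, with 34 members at an unadjusted limma p under 0.05), 24 in the deposited table (12.6%), 18 with centring on the mode (3.94%), 28 with poor spots kept (5.74%), 29 with the random block (7.08%) and 5 to 16 with a replicate left out. For ORF minus upstream, the 1 call lower over the ORF became 6 after loess (all coding genes 1.87%), 4 after normexp (1.23%), 5 in the deposited table (1.58%), 3 with only probes well above background (1.59%), 14 with poor spots kept (3.76%), 12 with the random block (3.34%), 0 without probes in another coding gene, and 0 to 5 with a replicate left out. Calls higher over the ORF became 2 after loess (5.32%) and 2 in the deposited table (5.45%). With a replicate left out, the shares of all coding genes called on the Cy5 side were 1.45 to 3.63% over the ORF and 0.138 to 0.847% upstream. They were 1.47 to 4.08% downstream and 0.0 to 1.31% for ORF minus upstream. Without probes in another coding gene, the share for ORF minus upstream was 0.0516%. Signs turned at rps1002 (0.068 after loess, 0.098 in the deposited table) and rps402 (0.035 and 0.055), at rps2501 (0.035 and 0.046, and -0.541 to 0.035 with a replicate left out), at rps602 (0.104 and 0.11, and -0.253 to 0.044) and at rps1902 (-0.547 to 0.079 with a replicate left out). In the last 3 it was leaving out replicate 3 that turned the sign, and only rps1002 was called before. The causes were not tested. No paired analysis was possible because the arrays form 1 group. The limits are 2 immunoprecipitations, no untagged control, an unsettled direction, and, on replicate 1, the lowest median Cy5 signal of the 4 arrays.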
